A study of Mus musculus with 6 samples.

Results

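Homologous recombination and Fanconi anemia genes encode the proteins that repair broken and crosslinked DNA with an intact copy as the template, and 31 of them were followed in HSCs with and without *Irf1*. The genes were taken by symbol from the deposited table, which holds 26264 genes, and all 31 were found there. Genes entered the test when their normalized count averaged 10 or more over the libraries, and 17404 genes did, with all 31 among them. The list has 21 recombination genes and 10 Fanconi genes.

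Bulk RNA-seq compared HSCs of WT mice (C57Bl/6) and *Irf1-/-* mice (B6.129S2-Irf1 tm1Mak/J), all female, untreated, and 8 weeks old, with 3 mice per genotype and 1 library per mouse. The *Irf1-/-* mice lacked the gene in the whole body, so HSCs and their surroundings both carried the allele. Libraries are named by the replicate numbers 2, 3, and 4 that the sample descriptions give within each genotype. The sample titles number the same libraries 1, 2, and 3 in this order. Reads counted on genes were between 43138521 and 59658080 per library. A normalized count is the read count of a gene divided by the size factor of its library. Because RNA was taken from sorted cells in bulk, fewer cells with a transcript and less of it per cell cannot be told apart.

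The gene that the allele targets, *Irf1*, was counted at 9267, 9524, and 9287 in *Irf1-/-* replicates 2, 3, and 4 and at 10122, 11119.6, and 12058 in the WT replicates, in normalized counts. The *Irf1-/-* libraries all lay below the WT libraries, but reads were still counted on the gene (log2 fold change −0.24, SE 0.0876, limma adjusted *P* = 0.170). The table gives 1 value per gene, so reads from parts of *Irf1* outside the deletion enter it, and the value is no full check of the genotype labels. The sorted population was checked with 12 markers of HSCs, all of which passed the filter. *Slamf1*, which encodes CD150, was counted between 2848 and 3823, and *Cd48* between 257 and 431. *Fgd5* (log2 fold change 0.83, SE 0.0869, limma adjusted *P* = 9.13e-05), *Procr* (0.52), and *Mycn* (0.40) were higher in *Irf1-/-* HSCs, and *Ly6a* (−0.43) was lower, each at a limma adjusted *P* under 0.05.

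Markers of other cells differed between libraries. The 5 granulocyte genes summed to 5525 in WT replicate 4 and to 129, 221, 463, 123, and 68.7 in *Irf1-/-* replicates 2, 3, and 4 and WT replicates 2 and 3. *Ngp*, the most abundant of them, reached 2535 in WT replicate 4, whereas *Ly6g* was 46.3 there, 1.07 in *Irf1-/-* replicate 2, and 0 in the other libraries. The 4 megakaryocyte genes summed to 36718, 21984, and 31706 in *Irf1-/-* replicates 2, 3, and 4 and 43331, 55002, and 40927 in the WT replicates, with *Itga2b* as the most abundant. Of these, *Pf4* (−1.11) and *Gp1ba* (−0.69) were lower at a limma adjusted *P* under 0.05, and none was at 0. The 5 erythroid genes summed to 2924, 2216, and 2731 in *Irf1-/-* replicates 2, 3, and 4 and 3705, 3828, and 2995 in the WT replicates. Among them *Klf1* was lower (−0.72, limma adjusted *P* = 0.0361), *Epor* was the most abundant, and the globin genes *Hba-a1* and *Hbb-bs* were listed at 0 in all 6 libraries. The 5 progenitor genes summed to between 18118 and 26471, and *Flt3* was the 1 gene past the threshold (higher, 0.67). Sums were between 2185 and 3246 for T and NK cell genes, where *Nkg7* led and *Cd3e* was at most 7.89, and between 543 and 835 for macrophage genes. B cell genes summed to between 56.8 and 115 and stromal and endothelial genes to between 75.5 and 204. No gene of these last 4 lists passed the threshold. The part of other cells in the values below was not tested.

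Homologous recombination starts when the ends of a break are trimmed to single strands, to which BRCA proteins are brought. A trimmed strand then invades the sister chromatid, is extended there, and the joined molecules are taken apart by helicases or cleaved by nucleases. Fanconi proteins recognize DNA strands that are crosslinked to each other, place ubiquitin on a pair of proteins, the ID complex, and so direct the crosslink to incision and to recombination. Inherited loss of Fanconi genes leads to bone marrow failure with loss of HSCs.

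Most of the 31 genes had lower values in *Irf1-/-* HSCs, and few passed the test. Fold changes are differences of mean log2(normalized count + 1), *Irf1-/-* minus WT, a scale that understates the change of genes with low counts. The fold change was negative for 27 of the 31 genes, against 50.4% of all genes tested. It was negative for 27 genes after quantile normalization (all genes tested, 50.3%) and for 29 with each library centred on its median (all genes tested, 55.2%). *Palb2*, *Rad52*, *Fancm*, and *Slx4* were the 4 with a positive fold change before these 2 adjustments. The median was −0.23 over the 31 genes and −0.00276 over all genes tested. Recombination genes had a median of −0.24 and Fanconi genes of −0.18, and this difference was not tested.

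With the thresholds of the study, a log2 fold change beyond 0.58 in either direction and an adjusted *P* (here of limma) under 0.05, 1 gene was called lower (*Rad51ap1*) and 0 were called higher. Over all genes tested, 0.954% were called lower and 0.96% higher by this rule. edgeR called 1 and DESeq2 3 of the 31 genes lower, and each called 0 of them higher. Over all genes, edgeR called 162, DESeq2 207, and limma 166 lower. With 1 library left out, limma called 0 to 4 of the 31 genes and 105 to 265 of all genes lower. Without the threshold on the fold change, *Rad51ap1* and *Fanca* were lower, 2 of 31 genes beside 1.49% of all genes tested, and *Slx4* was higher, 1 of 31 beside 1.73%. At an unadjusted limma *P* under 0.05, 9 genes were lower and 1 was higher, where all genes tested gave 8.07% and 8.38%. For 10 of the 31 genes, all *Irf1-/-* libraries lay below all WT libraries, and for 1 gene, *Slx4*, all lay above them. The shares of all genes tested with such a separation were 9.27% below and 10.6% above. Because 31 genes that tend to move together in a library are not independent, these shares are given as descriptions.

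**Figure D1:**
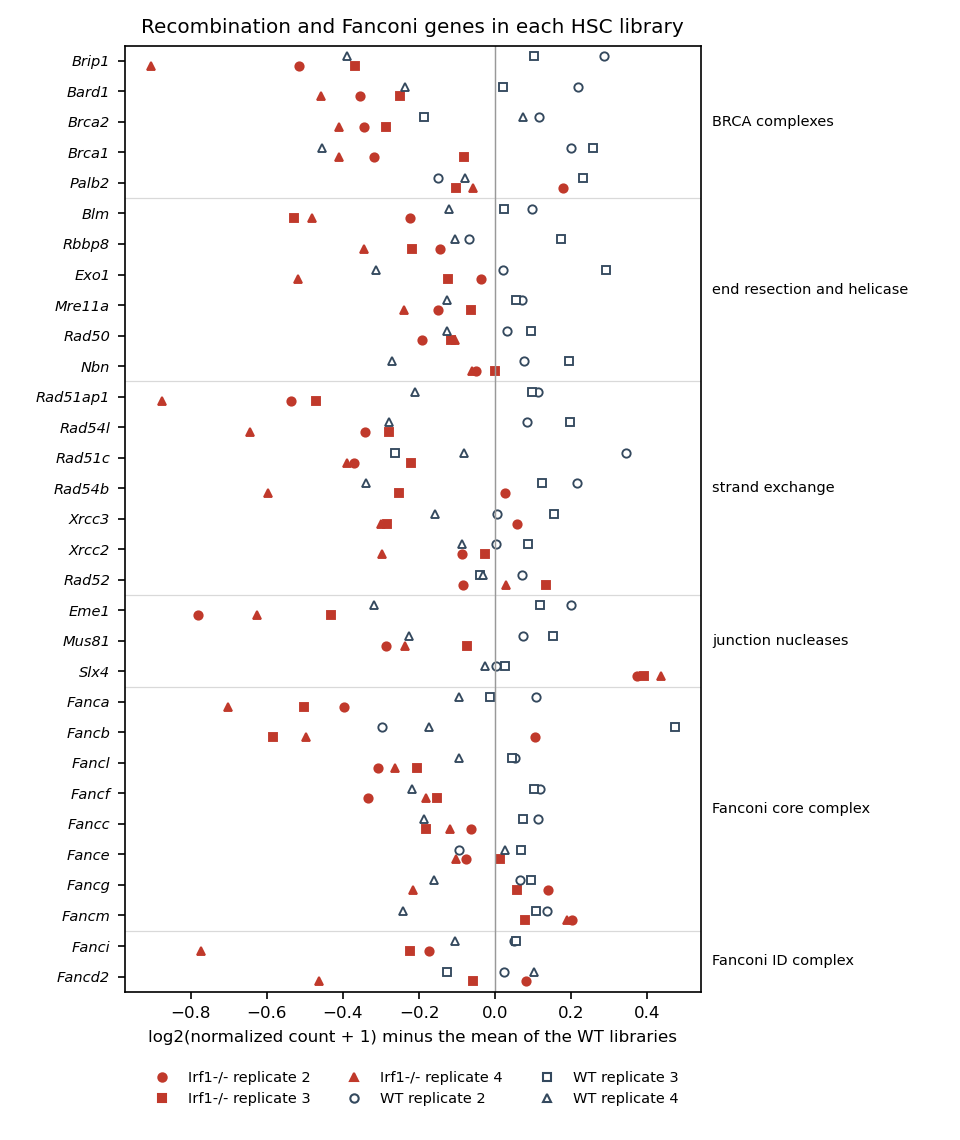
Each point is 1 library, placed by its log2(normalized count + 1) minus the mean of the 3 WT libraries for that gene, with genes grouped by role and sorted by fold change within it. The *Irf1-/-* libraries of *Slx4* stand apart on the right, and those of 10 genes, *Rad51ap1* and *Fanca* among them, lie wholly to the left of WT.

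The BRCA complexes act at the broken end. BRCA1 acts with its partner BARD1 as a ubiquitin ligase, PALB2 connects it to BRCA2, and BRIP1 is a helicase bound to BRCA1. *Brip1* had normalized counts of 1040.5, 1152, and 794 in *Irf1-/-* replicates 2, 3, and 4 and of 1816, 1596, and 1136 in the WT replicates. WT replicate 4 was within the *Irf1-/-* range for *Brip1*, just below *Irf1-/-* replicate 3, and the other 2 WT libraries were well above it. Its fold change did not pass the adjusted threshold of limma (log2 fold change −0.60, SE 0.176, limma adjusted *P* = 0.0894). *Brca2* was counted at 1310.2, 1364, and 1251 in the *Irf1-/-* libraries and at 1802, 1461, and 1750.3 in the WT libraries. All 3 *Irf1-/-* libraries of *Brca2* were below the lowest WT library, replicate 3, by a small margin against the spread of WT (log2 fold change −0.35, SE 0.116, limma adjusted *P* = 0.136). *Bard1* had the lowest level of all 31 genes per coding length, with counts of 97.0, 105, and 90.3 in *Irf1-/-* HSCs and 145, 126, and 105 in WT HSCs. The genotypes of *Bard1* did not overlap, yet WT replicate 4 was nearly at the level of *Irf1-/-* replicate 3 (log2 fold change −0.35, SE 0.290, limma adjusted *P* = 0.626). *Brca1* had a log2 fold change of −0.27 with WT replicate 4 as the lowest library of all, and without that library it was −0.50 (limma adjusted *P* = 0.0296). It was between −0.36 and −0.14 without any 1 of the other libraries, and did not pass there. *Palb2* was at 0.00601, with a negative sign after quantile normalization or median centring, so no direction can be given for it.

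Ends are resected first by the nuclease complex of MRE11, RAD50, and NBN with its cofactor RBBP8, and then over longer stretches by the exonuclease EXO1 or by a nuclease that works with the BLM helicase. BLM also dissolves joined DNA molecules without a crossover. *Blm* had counts of 1070.3, 866, and 896 in *Irf1-/-* replicates 2, 3, and 4 and of 1338, 1271, and 1149 in the WT replicates. The highest *Irf1-/-* library of *Blm*, replicate 2, was under the lowest WT library, replicate 4, and the other *Irf1-/-* libraries were lower still (log2 fold change −0.41, SE 0.128, limma adjusted *P* = 0.108). *Rbbp8* was also without overlap between genotypes, at a log2 fold change of −0.24. The remaining fold changes of this group were −0.23 for *Exo1*, −0.15 for *Mre11a*, −0.14 for *Rad50*, and −0.0372 for *Nbn*, all with overlapping libraries. None of the 6 genes passed the adjusted threshold with limma, and *Blm* did with DESeq2 (adjusted *P* = 0.0324). *Rad50* is a neighbour of *Irf1*, with 1 coding gene between them in RefSeq of GRCm38.p6, and whether DNA of the 129 strain beside the allele touches its value was not tested.

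Strand exchange genes act when the trimmed strand pairs with the intact copy. RAD51C and XRCC3 work as a pair, XRCC2 belongs to another complex, RAD52 anneals single strands, RAD51AP1 stimulates strand invasion, and RAD54L and RAD54B are translocases that remodel the invaded duplex. *Rad51ap1* was counted at 1299.5, 1359, and 1027 in *Irf1-/-* replicates 2, 3, and 4 and at 2039, 2018, and 1629 in the WT replicates. Replicate 4 was the lowest library in each genotype, and the WT value of replicate 4 was still above every *Irf1-/-* library of *Rad51ap1*. Means were 1228 ± 177 in *Irf1-/-* HSCs and 1895 ± 231 in WT HSCs (SD, n = 3), or 64.8% of WT (log2 fold change −0.63, SE 0.135, limma adjusted *P* = 0.0217). It kept the adjusted threshold of limma when *Irf1-/-* replicate 3 or WT replicate 4 was left out, and missed it with any other library left out, without the filter, and without the trend. *Rad54l* had counts of 2795, 2921, and 2267 in *Irf1-/-* HSCs and of 3757, 4062, and 2922 in WT HSCs. WT replicate 4 and *Irf1-/-* replicate 3 of *Rad54l* were almost equal, so the genotypes were separated by hardly any margin (log2 fold change −0.42, SE 0.131, limma adjusted *P* = 0.106).

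*Xrcc3*, *Xrcc2*, and *Rad52* did not separate the genotypes. *Xrcc3* was counted at 2490.3, 1968, and 1943 in *Irf1-/-* replicates 2, 3, and 4 and at 2400.4, 2665, and 2145 in the WT replicates, with *Irf1-/-* replicate 2 above WT replicates 2 and 4 (log2 fold change −0.18, SE 0.122, limma adjusted *P* = 0.543). Counts of *Xrcc2* were 1499.9, 1564, and 1296 in *Irf1-/-* HSCs and 1594, 1690.4, and 1499 in WT HSCs, and 2 of the *Irf1-/-* libraries were within the WT range (log2 fold change −0.14, SE 0.114, limma adjusted *P* = 0.639). *Rad52* had 1200.4, 1396, and 1298 in *Irf1-/-* HSCs and 1336, 1237, and 1244 in WT HSCs. The *Irf1-/-* libraries of *Rad52* included both the lowest and the highest of all 6 libraries (log2 fold change 0.0266, SE 0.114, limma adjusted *P* = 0.950), and its sign turned negative with median centring (−0.00442). *Rad51c* (−0.33) and *Rad54b* (−0.27) had negative fold changes within overlapping libraries.

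The junction nucleases had fold changes of both signs. SLX4 is the scaffold that holds several structure-specific nucleases together, among them MUS81, which cuts branched DNA as a dimer with EME1. *Slx4* had normalized counts of 2989, 3024, and 3119.5 in *Irf1-/-* replicates 2, 3, and 4 and of 2308, 2349, and 2262 in the WT replicates. Libraries of the same genotype were close to each other for *Slx4*, and every *Irf1-/-* library was above every WT library. Means were 3044 ± 67.5 in *Irf1-/-* HSCs and 2306 ± 43.1 in WT HSCs (SD, n = 3), or 132% of WT (log2 fold change 0.40, SE 0.0903, limma adjusted *P* = 0.0279). *Eme1* was counted at 512, 652, and 569.9 in the *Irf1-/-* libraries and at 1009.7, 956, and 706 in the WT libraries. All *Irf1-/-* libraries of *Eme1* lay below WT replicate 4, the lowest WT library, and *Irf1-/-* replicate 2 was the lowest of all. The *Irf1-/-* mean of *Eme1* was 64.9% of the WT mean without passing the adjusted threshold of limma (log2 fold change −0.61, SE 0.165, limma adjusted *P* = 0.0638). *Eme1* passed that threshold with median centring, with the filter at a mean of 50, without WT replicate 4, and with the replicate number as a block. For *Mus81* the log2 fold change was −0.20, with *Irf1-/-* replicates 3 and 2 on either side of WT replicate 4.

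The Fanconi core complex is a ubiquitin ligase in which FANCL is the catalytic subunit, FANCA, FANCB, FANCC, FANCE, FANCF, and FANCG are the other subunits, and FANCM is the translocase that brings the complex to DNA. *Fanca* had counts of 1201, 1116, and 973 in *Irf1-/-* replicates 2, 3, and 4 and of 1705, 1569.8, and 1482 in the WT replicates. A wide gap separated the genotypes of *Fanca*, and replicate 4 was the lowest library of each. Means were 1097 ± 116 in *Irf1-/-* HSCs and 1586 ± 112 in WT HSCs (SD, n = 3), or 69.2% of WT (log2 fold change −0.53, SE 0.121, limma adjusted *P* = 0.0279). It kept the adjusted threshold of limma when *Irf1-/-* replicate 2 or WT replicate 4 was left out, and missed it with any other library left out, without the filter, and without the trend. *Fancl* was counted at 876, 941, and 903 in *Irf1-/-* HSCs and at 1124, 1118, and 1014 in WT HSCs. The *Irf1-/-* libraries of *Fancl* were within a narrow range just below WT replicate 4 (log2 fold change −0.26, SE 0.120, limma adjusted *P* = 0.303).

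Apart from *Fanca*, no core subunit passed the adjusted threshold. *Fancm* had the largest positive fold change after *Slx4*, with counts of 982, 900.4, and 972 in *Irf1-/-* replicates 2, 3, and 4 and of 937, 918, and 721 in the WT replicates. WT replicate 4 alone was low for *Fancm*, and the rest overlapped (log2 fold change 0.16, SE 0.138, limma adjusted *P* = 0.660). *Fance* was counted at 2375, 2526, and 2331 in *Irf1-/-* HSCs and at 2343, 2625, and 2551 in WT HSCs, a difference smaller than the spread in either genotype (log2 fold change −0.0553, SE 0.0964, limma adjusted *P* = 0.856). Fold changes of *Fancb* (−0.33), *Fancf* (−0.22), and *Fancc* (−0.12) were negative within overlapping libraries. *Fancg* was at −0.00677 and turned positive after quantile normalization (0.0289).

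FANCI and FANCD2 form the ID complex, the clamp on DNA that the core complex ubiquitinates. *Fanci* had counts of 1507, 1456, and 993 in *Irf1-/-* replicates 2, 3, and 4 and of 1759, 1767, and 1580.3 in the WT replicates. *Irf1-/-* replicate 4 stood far below the other libraries of *Fanci*, and the remaining *Irf1-/-* libraries were just under WT replicate 4 (log2 fold change −0.39, SE 0.148, limma adjusted *P* = 0.192). Without *Irf1-/-* replicate 4 the log2 fold change of *Fanci* was −0.20 (limma adjusted *P* = 0.648). For *Fancd2* the libraries overlapped, and its log2 fold change of −0.15 turned to 0.0128 without the same library.

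**Figure D2:**
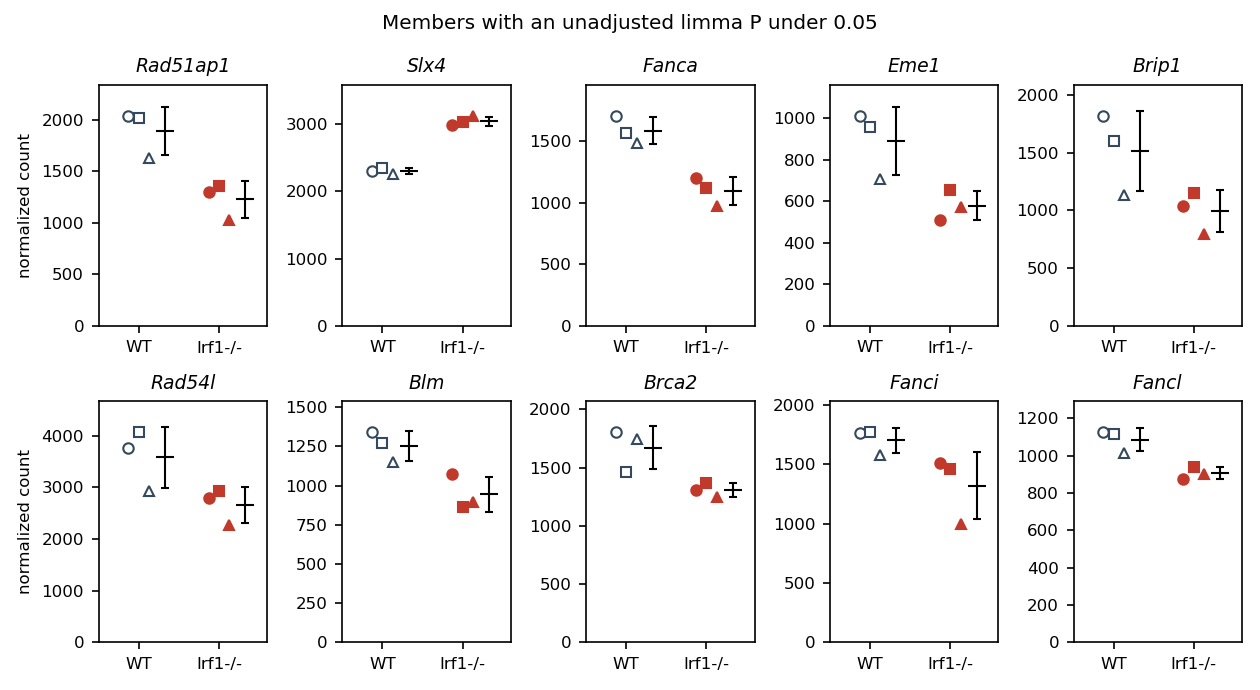
Normalized counts of the 10 genes with an unadjusted limma *P* under 0.05, with 1 point per library (circle, replicate 2; square, replicate 3; triangle, replicate 4) and the mean ± SD of 3 libraries beside them, on axes that start at 0. *Slx4* is the 1 gene of these with higher counts in *Irf1-/-* HSCs, and *Brip1* is the 1 whose genotypes overlap.

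Levels of the genes were compared as normalized counts per kilobase of coding sequence, with the longest coding length of each gene in GENCODE vM1. Counts can include reads outside the coding sequence, which this length leaves out, so the order depends on the divisor. Without it, the WT mean of *Brca2* (1671) was above that of *Xrcc2* (1594). In WT HSCs the level was highest for *Xrcc3* (2289 per kilobase), *Fance* (2023), and *Xrcc2* (1905), and *Rad51ap1* came next (1869). It was lowest for *Brca2* (167), *Fancm* (142), and *Bard1* (54.6), around a median of 794 over the 31 genes. In *Irf1-/-* HSCs the level of *Rad51ap1* was 1212 per kilobase, and that of *Xrcc2*, its neighbour in the WT order, was 1736. *Slx4* was at 491 per kilobase in WT HSCs and at 648 in *Irf1-/-* HSCs, and *Eme1*, just above it in WT HSCs (519.8), was at 337 in *Irf1-/-* HSCs. *Brca1*, whose product pairs with BARD1, stood at 419 per kilobase in WT HSCs, above *Bard1*.

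Values of the genes also varied between mice of one genotype. *Irf1-/-* replicate 4 was the lowest of all 6 libraries for 17 of the 31 genes, beside 14.5% of all genes tested. WT replicate 4 was the lowest WT library for 24 of the 31 genes, beside 40.3% of all genes tested. WT replicates 2 and 3 were the highest of all libraries for 13 genes each, beside 12.0% and 23.1% of all genes tested. The mean deviation of the 31 genes from their mean over the 6 libraries was −0.0484, −0.0614, and −0.23 in *Irf1-/-* replicates 2, 3, and 4 and 0.19, 0.20, and −0.0503 in the WT replicates (log2 scale). WT replicate 4 was thus at the level of *Irf1-/-* replicates 2 and 3, and the genotypes were not fully separated. The summed normalized count of the 31 genes was 50672, 50769.5, and 45448 in *Irf1-/-* replicates 2, 3, and 4 and 57926, 59899.7, and 49636 in the WT replicates, with *Rad50* as the most abundant gene.

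Single libraries decided several of the counts. Without WT replicate 4, the library with the highest sum of granulocyte genes, 6 of the 31 genes (*Rad51ap1*, *Brip1*, *Eme1*, *Rad54l*, *Fanca*, and *Brca1*) were lower at a limma adjusted *P* under 0.05, beside 3.14% of all genes tested, and 21 had both remaining WT libraries above all *Irf1-/-* libraries, beside 19.8%. Without *Irf1-/-* replicate 4 or WT replicate 2 or 3, 0 of the 31 genes passed the adjusted threshold, and the share of all genes tested that were lower was also smaller, at 0.758%, 0.804%, and 0.735%. Without *Irf1-/-* replicate 2 or 3, 1 gene was lower, beside 0.908% and 1.53%. *Slx4* missed the adjusted threshold when any 1 *Irf1-/-* library, WT replicate 2, or WT replicate 3 was left out, at limma adjusted *P* values up to 0.141, and kept a log2 fold change of at least 0.37 under every alternative tried. DESeq2 on recovered reads placed 7 of the 31 genes lower at its adjusted *P* under 0.05, beside 5.05% of the genes to which it gave an adjusted *P*. They were *Rad51ap1*, *Fanca*, *Eme1*, *Brip1*, *Rad54l*, *Blm*, and *Brca2*. With edgeR, as with limma, *Rad51ap1* and *Fanca* were lower and *Slx4* was higher.

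Another 54 genes of recombination and crosslink repair, outside the 31, were read in the same way. Of these, 1 was lower and 0 were higher at a limma adjusted *P* under 0.05, beside 1.49% and 1.73% of all genes tested. At an unadjusted limma *P* under 0.05, 20 were lower and 1 was higher, beside 8.07% and 8.38%. The fold change was negative for 40, beside 50.4% of all genes tested, with a median of −0.18 over the 54 genes. With 1 library left out, 0 to 12 of the 54 genes were lower at the adjusted threshold, and DESeq2 gave 14. The shares of all genes were 0.735% to 3.14% with 1 library left out and 5.05% with DESeq2. The gene past the limma threshold with all libraries was *Rmi2*, which encodes a subunit of the complex in which BLM dissolves double junctions. *Rmi2* had counts of 1076, 1039, and 1092 in *Irf1-/-* replicates 2, 3, and 4 and of 1816, 1580.0, and 1321 in the WT replicates. The *Irf1-/-* libraries of *Rmi2* were nearly equal and all below WT (log2 fold change −0.54, SE 0.129, limma adjusted *P* = 0.0352), and it missed the limma threshold when any library but WT replicate 4 was left out.

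Among 29 genes of damage signalling, 28 were tested, since *Atrip* did not pass the filter. At a limma adjusted *P* under 0.05, 2 were lower and 0 higher, beside 1.49% and 1.73% of all genes tested (median of the list −0.21). *Tipin*, whose product protects stalled forks, had counts of 3782, 3908, and 3529.6 in *Irf1-/-* HSCs and 5812, 5971, and 4649.6 in WT HSCs (log2 fold change −0.54, SE 0.105, limma adjusted *P* = 0.0123). *Rnf168*, a ubiquitin ligase that marks chromatin around breaks, was counted at 3360.1, 3149.8, and 3075 in *Irf1-/-* HSCs and at 4413, 4418, and 3887 in WT HSCs (log2 fold change −0.41, SE 0.0930, limma adjusted *P* = 0.0306). Both genes were without overlap between genotypes. *Tipin* missed the limma threshold without 3 of the 6 libraries in turn and *Rnf168* without 5 of them, and the list had 0 to 6 genes past it with 1 library left out and 5 with DESeq2. End joining, which seals breaks without a template, had 0 of 19 genes past the adjusted threshold in either direction. At an unadjusted limma *P* under 0.05, 3 of them were lower, beside 8.07% of all genes tested. The fold change was negative for 11 of the 19, beside 50.4% of all genes tested, with a median of −0.0287. edgeR gave 0 and DESeq2 1 of these 19 genes lower at an adjusted *P* under 0.05, beside 1.53% and 5.05% of all genes. limma gave 1, *Polq*, without WT replicate 4, and 0 with any other library left out. The 3 genes with the smallest *P* were *Polq* (−0.78), *Prkdc* (−0.37), and *Lig4* (−0.75), and *Polq*, which drives joining at short homologies, is also among the 54 genes above. *Mad2l2*, listed under damage signalling, is among those 54 genes too. Whether end joining differed from recombination was not tested.

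Many recombination genes are transcribed mostly in S and G2 phase, so genes of replication and mitosis were read beside them. Of 35 replication genes, 35 had a negative fold change, 33 were lower at an unadjusted and 7 at an adjusted limma *P* under 0.05, with sums of 283539, 290321, and 246331 in *Irf1-/-* replicates 2, 3, and 4 and 371436, 407642, and 304647 in the WT replicates and *Mcm6* as the most abundant. Of 25 mitosis genes, all 25 were negative, 23 and 6 were lower at these thresholds, the sums were 91705, 94336, and 60349 in *Irf1-/-* replicates 2, 3, and 4 and 127766, 131803, and 94862 in the WT replicates, and *Top2a* was the most abundant. Of all genes tested, 50.4% were negative, and 8.07% and 1.49% were lower at the unadjusted and the adjusted threshold of limma. With 1 library left out, the adjusted counts ranged from 1 to 28 for replication and from 0 to 17 for mitosis, and DESeq2 gave 28 and 16. The shares of all genes were 0.735% to 3.14% with 1 library left out and 5.05% with DESeq2. No gene of either list was at 0 in all libraries. Medians were −0.41 for replication and −0.53 for mitosis, and *Irf1-/-* replicate 4 and WT replicate 4 had the lowest mean deviation within their genotypes in both lists, as for the 31 genes. The 7 replication genes past the adjusted threshold of limma were *Gins1* (−0.82), *Fen1*, *Dut*, *Pola1*, *Tk1*, *Tyms*, and *Cdt1*, and the 6 mitosis genes were *Top2a* (−0.77), *Kif11*, *Aurkb*, *Cdk1*, *Mki67*, and *Tpx2*. The part of the cell cycle in the values of the 31 genes was not tested. Of 19 E2F and DREAM regulators, which time transcription of such genes, *E2f8* was lower (log2 fold change −0.81, SE 0.140, limma adjusted *P* = 0.00580) and 0 were higher at the adjusted threshold, with a median of −0.16. With 1 library left out, 1 to 6 of these 19 were lower, *E2f8* each time among them, and DESeq2 gave 7 lower and 1 higher.

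**Figure D3:**
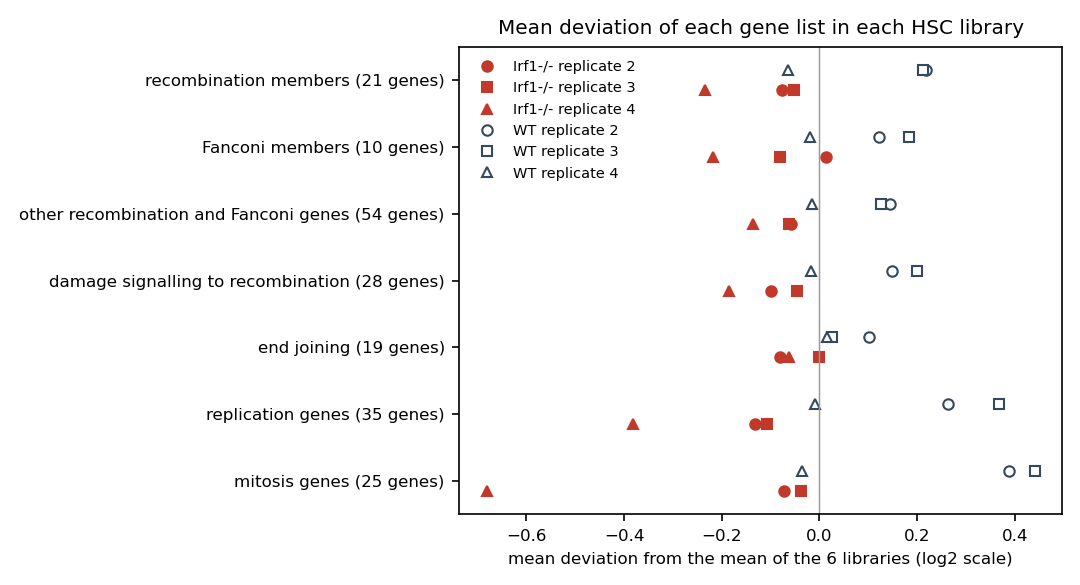
Each point is 1 library, placed by the mean deviation of the tested genes of a list from their mean over the 6 libraries (log2 scale). *Irf1-/-* replicate 4 is leftmost in every list drawn except end joining, and WT replicate 4 is the leftmost WT library in all 7.

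Some of the genes overlap neighbours in position, taken over whole gene spans, and exons were not compared. By gene positions in RefSeq of GRCm38.p6, 11 of the 31 genes overlap another coding gene of the table. Among them are *Fanca* with *Zfp276*, *Eme1* with *Lrrc59* and *Mrpl27*, *Rad54l* with *Lrrc41*, *Fanci* with *Polg*, *Fancl* with *Vrk2*, and *Xrcc3* with *Klc1*. The strand setting of the counting is not stated either, so whether any reads belong to a partner is uncertain, also for the rank of *Xrcc3* per coding length. Log2 fold changes of these partners were 0.15 for *Zfp276*, −0.32 for *Lrrc59*, −0.0836 for *Mrpl27*, −0.0549 for *Lrrc41*, −0.0332 for *Polg*, −0.0642 for *Vrk2*, and −0.0914 for *Klc1*, and none passed the adjusted threshold. *Rad51ap1* and *Slx4* overlap no coding gene of the table.

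Promoter sequences were read to show what lies at the starts of the genes with the smallest *P*. RefSeq windows of GRCm38.p6, from 250 bases before to 50 bases after a start, were found for 24 of the 31 genes. They were searched on both strands for 3 motifs, which are E2F (TTTCCCGC, TTTCGCGC, TTTGCCGC or TTTGGCGC), the cell cycle homology region (TTTGAA or else TTCGAA), and the interferon response element (GAAA, any 2 bases, and GAAA again). E2F letters were in windows of 4 of the 24 genes (*Bard1*, *Brca2*, *Fancg*, and *Rad51c*) and in 2.26% of all 32851 windows. Cell cycle homology letters were in windows of 2 genes (*Bard1* and *Eme1*) and in 19.2% of all windows. Interferon response letters were in windows of 3 genes (*Brca2*, *Brip1*, and *Fancg*) and in 3.44% of all windows. A match is a description of the letters and no evidence of a bound factor.

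The windows of the 5 genes with the smallest *P* are printed 5′ to 3′ with matches in capitals. They lie at chr6:126939538-126939837, minus strand for *Rad51ap1*, chr16:4001629-4001928, minus strand for *Slx4*, chr8:123318527-123318826, minus strand for *Fanca*, chr11:94653694-94653993, minus strand for *Eme1*, and chr11:86201144-86201443, minus strand for *Brip1*. The start used for *Slx4* is 2151 bases inside the outermost start of the gene in RefSeq. *Eme1* holds 1 cell cycle homology match and *Brip1* holds 1 interferon response match, no matches overlap, and the other windows hold none of the letters searched.
Rad51ap1: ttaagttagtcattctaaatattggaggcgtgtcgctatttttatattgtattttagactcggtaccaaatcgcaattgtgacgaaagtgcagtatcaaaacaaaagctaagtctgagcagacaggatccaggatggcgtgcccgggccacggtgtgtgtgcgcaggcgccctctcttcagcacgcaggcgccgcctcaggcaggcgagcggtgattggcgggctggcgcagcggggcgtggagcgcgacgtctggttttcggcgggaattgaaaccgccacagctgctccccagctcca
Slx4: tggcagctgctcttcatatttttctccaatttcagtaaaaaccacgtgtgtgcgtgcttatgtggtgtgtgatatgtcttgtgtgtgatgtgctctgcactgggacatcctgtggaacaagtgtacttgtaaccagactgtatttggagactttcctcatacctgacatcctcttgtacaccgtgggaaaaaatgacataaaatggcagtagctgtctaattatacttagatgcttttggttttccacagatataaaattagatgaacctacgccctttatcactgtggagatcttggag
Fanca: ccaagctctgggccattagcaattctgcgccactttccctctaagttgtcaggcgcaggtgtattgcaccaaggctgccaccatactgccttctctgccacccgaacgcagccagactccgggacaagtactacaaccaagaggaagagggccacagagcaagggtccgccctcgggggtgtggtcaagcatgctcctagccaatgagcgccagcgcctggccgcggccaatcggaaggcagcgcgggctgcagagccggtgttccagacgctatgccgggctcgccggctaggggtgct
Eme1: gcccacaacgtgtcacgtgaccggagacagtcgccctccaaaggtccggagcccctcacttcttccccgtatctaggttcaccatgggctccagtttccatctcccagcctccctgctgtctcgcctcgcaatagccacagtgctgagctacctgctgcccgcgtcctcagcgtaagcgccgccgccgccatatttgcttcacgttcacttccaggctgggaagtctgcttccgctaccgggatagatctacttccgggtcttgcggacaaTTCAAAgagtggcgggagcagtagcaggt
Brip1: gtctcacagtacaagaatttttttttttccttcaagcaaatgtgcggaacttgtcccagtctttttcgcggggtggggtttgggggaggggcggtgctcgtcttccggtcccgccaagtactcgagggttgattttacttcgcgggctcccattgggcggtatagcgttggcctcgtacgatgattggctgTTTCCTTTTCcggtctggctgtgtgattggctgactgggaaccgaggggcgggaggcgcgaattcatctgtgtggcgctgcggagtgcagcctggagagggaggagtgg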

How the data were processed

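HSCs were sorted from the bone marrow of each mouse, and the authors prepared cDNA with SMART-Seq v4 and libraries with Nextera XT, used Trim Galore! for trimming, HISAT2 for alignment (mm39 in their processing notes), and Htseq-count for counting per gene. The deposited signal is this count divided by a DESeq2 size factor. Program versions, annotation, and strand setting are not given in the sources used here. Divided by the worth of 1 read in its library, 100% of values came out whole within 0.1, so reads were recovered. These PCR reads carry no molecular identifiers. limma 3.58.1 (R 4.3.3, intensity trend) was fitted to log2(normalized count + 1) of all genes with a mean of at least 10, with Benjamini-Hochberg adjustment. edgeR 4.0.16 and DESeq2 1.42.0 on recovered reads, other pseudocounts, filters, and normalizations, a replicate block, and each library left out were alternatives. Tests were checked on simulated data.

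All 31 genes are named. Values in every library are given for *Irf1*, genes at an unadjusted *P* under 0.05, the 3 largest positive fold changes, and the 3 most and 3 least abundant per coding length (GENCODE vM1). Of other lists, genes past the adjusted threshold or the 3 with the smallest *P* are named, and other names were chosen after values were seen. The genes and lists were chosen with earlier results of these data known. Figures were drawn with matplotlib 3.10.9.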

Additional observations from a re-analysis of the deposited data

How the results depend on the processing

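Results were recomputed under 16 alternatives, 6 of which left out 1 library. The sign of the fold change was the same under all of them for 26 of the 31 genes. The other 5 changed sign. *Palb2* was at −0.00624 after quantile normalization and −0.0251 with median centring, *Rad52* was at −0.00442 with median centring, and *Fancg* was at 0.0289 after quantile normalization. With 1 library left out, the log2 fold change ranged from −0.26 to 0.0128 for *Fancd2*, −0.0875 to 0.0978 for *Fancg*, −0.17 to 0.0605 for *Nbn*, −0.0808 to 0.12 for *Palb2*, and −0.0270 to 0.0816 for *Rad52*.

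Counts of genes past the adjusted threshold depended on the setting. Without the filter, and likewise without the trend, 0 of the 31 genes were called lower, 0 were lower at an adjusted *P* under 0.05, and 0 of the other 54 pathway genes were. The genes called lower numbered 2 with a filter at a mean of 50 or with median centring, beside 172 of 13366 and 196 of 17404 genes tested. Of the pathway genes, 3 were lower after quantile normalization and 4 with median centring. DESeq2 called 3 of the 31 genes lower, with 7 of the 31 genes and 14 pathway genes at its adjusted threshold. Over all genes, DESeq2 called 207 lower, where limma called 166, and placed 657 lower at its adjusted threshold, where limma placed 260. These counts over all genes were 36 and 37 without the filter and 33 and 33 without the trend. Damage signalling, replication, mitosis, and E2F genes had 0 past the adjusted threshold without the filter or the trend. With each library left out, the 31 genes gave 0 to 4 called lower, 0 to 6 lower at an adjusted and 6 to 16 at an unadjusted *P* under 0.05, and 10 to 21 with all *Irf1-/-* libraries below all WT libraries, and pathway genes gave 0 to 12. Over all genes, these fits called 105 to 265 lower and placed 128 to 547 lower at the adjusted threshold. The highest of these values were all without WT replicate 4. In that fit, 19.8% of all genes tested had all *Irf1-/-* libraries below both remaining WT libraries, against 9.27% below all WT libraries with none left out. The share of all genes lower at an unadjusted *P* was taken with all libraries only (8.07% with limma), so the 6 to 16 genes have no matching share beside them. The median log2 fold change of the 31 genes was between −0.31 and −0.14. Of the 31 genes, 0 were called higher under every alternative. *Rad51ap1*, *Fanca*, and *Slx4* kept their signs throughout and missed the adjusted threshold without the trend and with some single libraries left out, *Rad51ap1* and *Fanca* also without the filter. The cause was not tested.

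Libraries of the 2 genotypes share only a replicate number. Deviations of libraries with the same number correlated at −0.0940, 0.246, and 0.147 for replicates 2, 3, and 4, and not every library correlated best with its own number, as *Irf1-/-* replicate 2 did so with WT replicate 4 (0.251). With the replicate block, calls over all genes went from 166 to 196 lower and from 167 to 219 higher, genes lower at an adjusted *P* under 0.05 went from 260 to 608 (1.49% to 3.49% of genes tested), and of the 31 genes, 3 were called lower and 5 (*Rad51ap1*, *Rad54l*, *Brip1*, *Fanca*, and *Eme1*) were lower at the adjusted threshold, with 13 pathway genes.

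PCR reads without molecular identifiers can outnumber the molecules sampled, so read depth gives no count of molecules, which limits genes with low counts such as *Bard1*. With 3 mice per genotype, small differences cannot be resolved, and an adjusted *P* above 0.05 does not show equal levels.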
